A study of Homo sapiens with 8 samples.

Results

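Hypoxia and glycolysis genes were followed in the human neuroblastoma line SK-N-SH with more or less of the chromatin reader ZMYND8. The group held 39 named genes of 60659 in the count table, chosen by symbol, with earlier results of these data known. It covered subunits of the hypoxia-inducible factors (HIF), their oxygen sensors, known HIF targets, glucose transporters, glycolytic enzymes, and genes of lactate and pyruvate handling. All 39 were found and all 39 had enough counts to be tested in both comparisons. Ribosomal RNA-depleted total RNA was sequenced in 4 groups of 2 libraries, and each group had 10 µM all-trans retinoic acid (ATRA) for 24 h, according to the labels. Parental cells with doxycycline (Dox) were the control for ZMYND8 OE cells, which carried FLAG ZMYND8 and also had Dox. KD control cells were the control for ZMYND8 KD cells, and the labels name no Dox for this pair. Per the methods, the overexpressing cells were made with lentivirus and selected with G418, a treatment that the methods do not describe for parental cells. How ZMYND8 was depleted in the sequenced KD cells was not given in the sources used here. The labels name no low-oxygen treatment for any group.

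The alpha subunits HIF1A and EPAS1 (HIF-2 alpha) pair with ARNT and bind promoters and enhancers of target genes. When oxygen is present, prolyl hydroxylases such as EGLN1 and EGLN3 mark the alpha subunits for breakdown, so HIF activity is set largely at the protein level and is not read from HIF1A mRNA. HIF targets include most glycolytic enzymes, glucose transporters and secreted factors such as VEGFA, and ZMYND8 has been described elsewhere as a HIF coactivator. Several glycolytic steps are served by isozymes. HK2, PFKP, ALDOA, ENO1 and LDHA are common in proliferating cells, while ALDOC is the brain-type aldolase and ENO2 the neuronal enolase.

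ZMYND8 itself was measured at 34.6 and 34.6 TPM, which are counts divided by exon length and scaled to one total per library, in Parental cells and at 2140 and 2315 TPM in ZMYND8 OE cells. It was at 24.8 and 26.9 TPM in KD control cells and at 12.7 and 12.3 TPM in ZMYND8 KD cells. Libraries held 38316523 to 56256979 counts. Mitochondrially encoded genes took 0.11% to 0.168% of counts in the Parental and ZMYND8 OE libraries and 2.92% to 3.41% in the knockdown experiment. Levels therefore cannot be compared between experiments apart from the experiment itself, and both tested comparisons stayed within one. With 2 libraries a group, an exact permutation test of a single value cannot give a p below 0.3333, so p-values came from fits across all genes.

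Of the 12 members called by the rule used for the comparisons, 4 are shown by sequence, as examples of upstream regions that held the short core of the HIF response element. ALDOC was higher in ZMYND8 OE cells, and PFKFB3, SLC16A3 and KDELR3 were lower. The stretches are RefSeq sequence of GRCh38.p14, from within the 250 bases before an annotated start, with any base that GENCODE 44 places in an exon left out. Capitals mark ACGTG or its reverse complement CACGT, and both overlap where the letters are CACGTG. The ALDOC stretch lies at chr17:28576949-28577145 on the minus strand, PFKFB3 at chr10:6202694-6202865, SLC16A3 at chr17:82228792-82229041 and KDELR3 at chr22:38467846-38468077, these 3 on the plus strand.
ALDOC: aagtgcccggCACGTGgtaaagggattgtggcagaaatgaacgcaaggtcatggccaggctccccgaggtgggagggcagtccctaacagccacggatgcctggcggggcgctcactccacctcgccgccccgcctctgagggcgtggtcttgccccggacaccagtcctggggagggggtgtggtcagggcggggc
PFKFB3: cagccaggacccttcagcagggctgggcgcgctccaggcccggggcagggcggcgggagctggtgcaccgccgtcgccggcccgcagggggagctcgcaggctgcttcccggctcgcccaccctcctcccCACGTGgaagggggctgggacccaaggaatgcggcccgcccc
SLC16A3: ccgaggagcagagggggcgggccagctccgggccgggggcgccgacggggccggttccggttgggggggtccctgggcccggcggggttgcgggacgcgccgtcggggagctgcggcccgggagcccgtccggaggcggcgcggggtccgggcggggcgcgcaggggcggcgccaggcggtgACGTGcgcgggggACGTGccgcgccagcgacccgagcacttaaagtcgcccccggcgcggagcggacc
KDELR3: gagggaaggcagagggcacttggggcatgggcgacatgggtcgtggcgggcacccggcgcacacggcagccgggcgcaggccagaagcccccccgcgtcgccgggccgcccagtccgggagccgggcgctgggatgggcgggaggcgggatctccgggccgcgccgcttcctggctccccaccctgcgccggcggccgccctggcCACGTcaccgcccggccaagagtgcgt
The match in PFKFB3 began 108 bases before the start shown, those in SLC16A3 68 and 55 bases before, and that in KDELR3 45 bases before. For PFKFB3 and SLC16A3 the start shown was picked because it held a match, and their other listed starts held none. The called members EPAS1, EGLN3, CA12, P4HA2 and SLC2A1 had no ACGTG before any listed start. The printed match in ALDOC began 240 bases before the start, and a further one 28 bases before lies outside the printed stretch. Sequences were listed for 35 members, and SLC2A3, VEGFA, BNIP3L and NDRG1 had none in the table. Of the 62 start sites of these members, 23 (37.1%) held ACGTG on either strand in their 250 bases, beside 18.5% of the 35116 start sites of all genes. With GCGTG added, the shares were 58.1% and 43.2%. These letters were present upstream of members that rose and of members that fell, and a match describes the sequence and not a bound site.

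In ZMYND8 OE cells, 23 of the 39 members were lower than in Parental cells and 8 were higher, while 8 did not pass the test. Passing the test means an adjusted p below 0.05 in edgeR's quasi-likelihood test. Of all 20835 genes tested, 29.1% passed in the lower direction and 31.7% in the higher direction, beside 59.0% and 20.5% of the members. The median log2 fold change of the members was -0.45, and that of all genes tested was 0.03. A gene was called when it also changed at least 2-fold with a mean normalized count above 20. By this rule 9 members were called lower, beside 6.84% of all genes, and 3 were called higher, beside 11.8% of all genes. The lower members were EPAS1, VEGFA, CA12, P4HA1, P4HA2, KDELR3, SLC2A1, PFKFB3 and SLC16A3, and the higher ones were EGLN3, ALDOC and ENO2. Scaling to total counts alone moved the median of all genes by over 0.1, to 0.29, and gave 15 members higher and 19 lower, with 4 called higher and 6 called lower. Over the alternatives run, log2 fold changes came as near to 0 as -0.81 for SLC2A1, -0.83 for P4HA1, -0.99 for VEGFA and 0.96 for ALDOC. The calls of these members therefore depended on the setting.

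**Figure D1:**
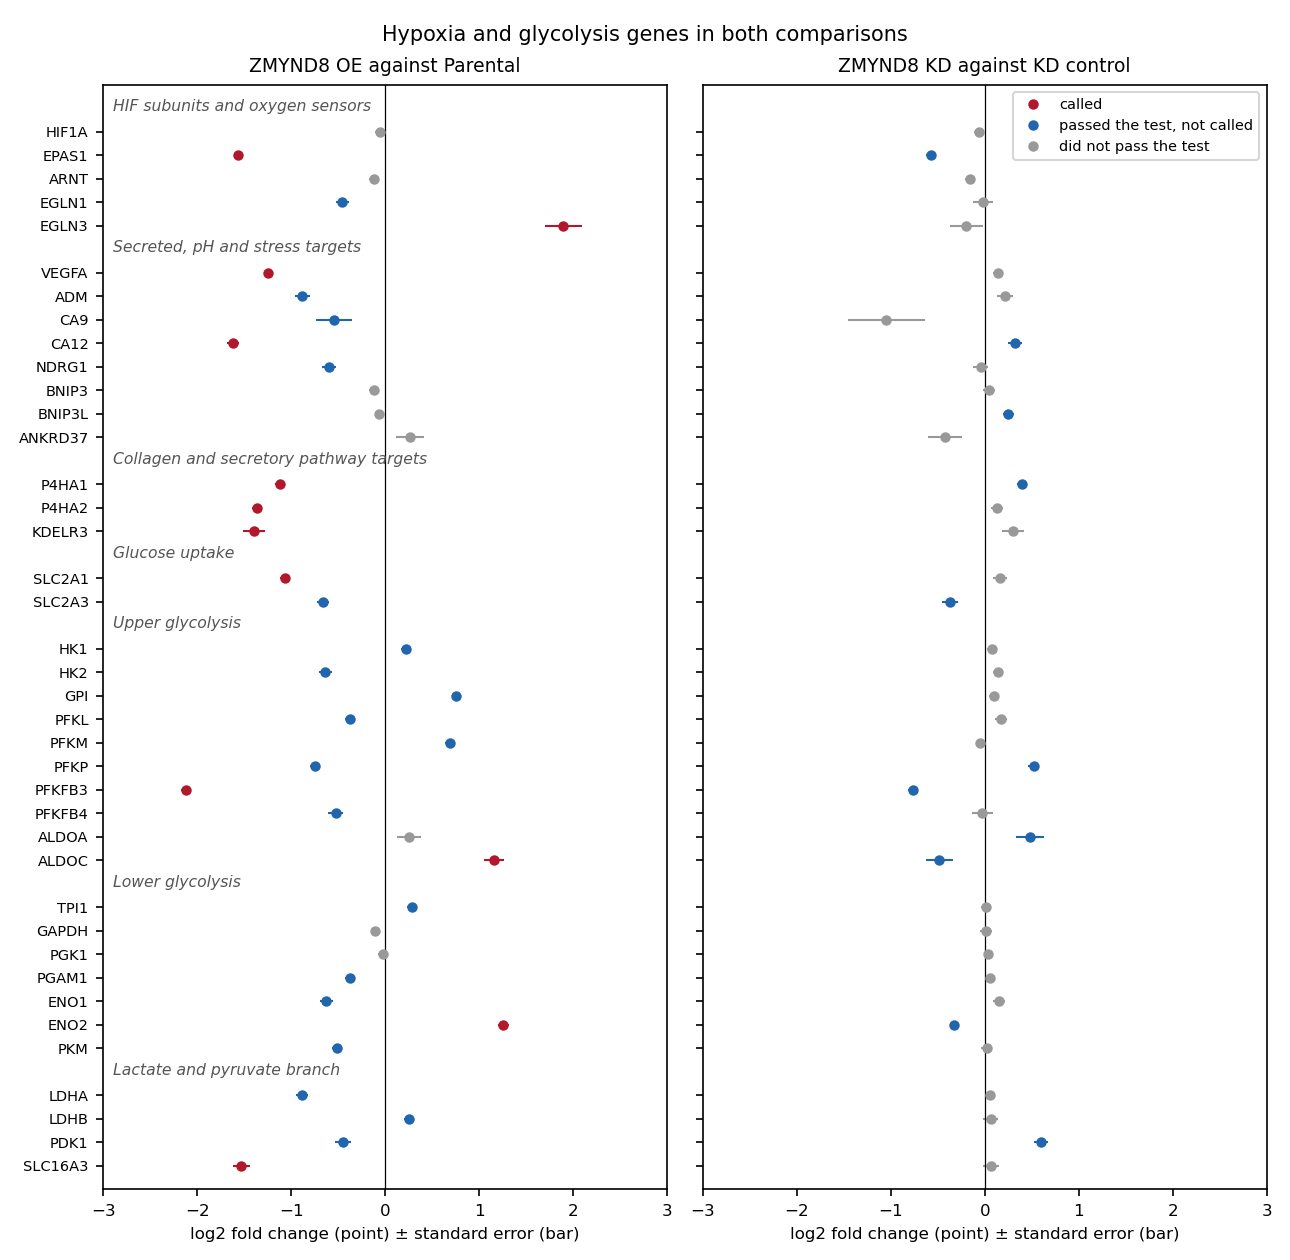
Log2 fold change of each of the 39 members, by role, in ZMYND8 OE against Parental (left) and ZMYND8 KD against KD control (right). Points are estimates from 2 against 2 libraries and bars are standard errors, with red for called members, blue for members that passed the test without being called and grey for the rest. The left panel holds 12 red points between -2.12 and 1.90 and the right panel holds none.

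The HIF subunits did not move together. Normalized counts are counts scaled to one effective library size within a comparison. HIF1A (ENSG00000100644) was at 14526 and 13909.7 normalized counts in Parental cells against 14212 and 13192 in ZMYND8 OE cells, and the groups overlapped. The fold change on the log2 scale was -0.05 (standard error 0.054, adjusted p = 0.42), but it was 0.20 (adjusted p = 0.0044) when libraries were scaled to total counts alone and 0.20 (adjusted p = 0.0074) after removal of trends with gene length and GC content. EPAS1 (ENSG00000116016, chromosome 2, 46293667 to 46386697), the other alpha subunit, was at 27579.9 and 27968 normalized counts in Parental cells against 9664 and 9154 in ZMYND8 OE cells. It fell 2.95-fold, by 1.56 on the log2 scale (standard error 0.050, adjusted p = 1.56e-09). ARNT, their common partner, was at -0.12 on the log2 scale (adjusted p = 0.064), which was 0.14 (adjusted p = 0.034) with total counts alone and -0.13 (adjusted p = 0.048) with RLE normalization, the size factors of DESeq2.

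The oxygen sensors went in opposite directions. EGLN3 (ENSG00000129521, chromosome 14, 33924227 to 34462774) was at 49.4 and 66.8 normalized counts in Parental cells against 234 and 202 in ZMYND8 OE cells, 3.72-fold higher (log2 fold change 1.90, standard error 0.20, adjusted p = 1.11e-05). EGLN3 was the member with the lowest level per length in the Parental group, at a mean of 0.612 TPM. EGLN1, the more abundant sensor, fell by 0.45 on the log2 scale (standard error 0.074, adjusted p = 0.00035). Of its exon bases, 55.83% also belong to another gene on the same strand, which held at most 3 counts in any library.

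Among the secreted, pH and stress targets, 5 of 8 fell and none rose. VEGFA (ENSG00000112715, chromosome 6, 43770184 to 43786487), which drives vessel growth, was at 3059.8 and 3072 normalized counts in Parental cells against 1286 and 1305 in ZMYND8 OE cells (log2 fold change -1.24, standard error 0.052, adjusted p = 1.00e-08). CA12 (ENSG00000074410, chromosome 15, 63321378 to 63381846), a membrane carbonic anhydrase, was at 2868 and 2879 in Parental cells against 985 and 878 in ZMYND8 OE cells (log2 fold change -1.62, standard error 0.065, adjusted p = 7.05e-09). Both genes were thus lower in each OE library than in either Parental library. ADM, which encodes the vasodilator peptide adrenomedullin, fell by 0.88 on the log2 scale, and NDRG1 fell by 0.60. CA9, a second carbonic anhydrase and a widely used hypoxia marker, had 62 to 107 counts a library and an estimate of -0.55 on the log2 scale (standard error 0.19, adjusted p = 0.029), which did not pass with DESeq2 (-0.57, adjusted p = 0.20), with total counts alone (-0.30, adjusted p = 0.21) or without any 1 of the 4 libraries (adjusted p = 0.075 to 0.095). Of its exon bases, 36.13% lie under ARHGEF39 on the other strand. The mitophagy receptors BNIP3 and BNIP3L and the ankyrin repeat gene ANKRD37 had log2 fold changes of -0.12, -0.06 and 0.27 and did not pass. BNIP3L turned direction and passed as higher with length and GC trends taken out (0.22, adjusted p = 0.0025) and with total counts alone (0.19, adjusted p = 0.0046), and ANKRD37 passed as higher with total counts alone (0.52, adjusted p = 0.010). BNIP3 passed as lower with length and GC trends taken out (-0.19, adjusted p = 0.0087), with the replicate number as a block (-0.12, adjusted p = 0.0497) and with RLE normalization (-0.13, adjusted p = 0.045).

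All 3 collagen and secretory pathway targets fell at least 2-fold, though P4HA1 did not under every alternative run (as little as -0.83 on the log2 scale). P4HA1 (ENSG00000122884, chromosome 10, 73007217 to 73096974) and P4HA2 (ENSG00000072682, chromosome 5, 132190147 to 132295315) encode catalytic subunits of collagen prolyl 4-hydroxylase. P4HA1 was at 8506 and 8576 normalized counts in Parental cells against 3937 and 3906 in ZMYND8 OE cells (log2 fold change -1.12, standard error 0.047, adjusted p = 1.00e-08). P4HA2 was at 4363 and 4472 in Parental cells against 1716 and 1718 in ZMYND8 OE cells (log2 fold change -1.36, standard error 0.050, adjusted p = 3.92e-09). KDELR3 (ENSG00000100196, chromosome 22, 38468078 to 38483447), a receptor that returns proteins to the endoplasmic reticulum, was at 612 and 620.1 against 254 and 212 (log2 fold change -1.40, standard error 0.12, adjusted p = 1.94e-06). The replicates of these genes lay far closer to each other than the groups did.

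Both glucose transporters fell. SLC2A1 (GLUT1, ENSG00000117394, chromosome 1, 42925353 to 42958893), the basal transporter, was at 5292 and 5539.8 normalized counts in Parental cells against 2665 and 2519.7 in ZMYND8 OE cells (log2 fold change -1.06, standard error 0.053, adjusted p = 3.84e-08). SLC2A3 (GLUT3) fell by 0.66 on the log2 scale (standard error 0.063, adjusted p = 5.58e-06), and 40.2% of its exonic 31-base words recur elsewhere on the primary chromosomes.

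The 10 genes of upper glycolysis split, with 5 lower, 4 higher and 1 that did not pass. The lowest fold change of all members was that of PFKFB3 (ENSG00000170525, chromosome 10, 6144934 to 6254644), which makes the sugar phosphate that switches phosphofructokinase on. It was at 24584 and 25725 normalized counts in Parental cells against 5826 and 5738 in ZMYND8 OE cells, 4.35-fold lower (log2 fold change -2.12, standard error 0.051, adjusted p = 1.97e-10). Its relative PFKFB4 fell by 0.53 on the log2 scale. HK2, the inducible hexokinase, was at 2226 and 2477 in Parental cells against 1568 and 1457 in ZMYND8 OE cells (log2 fold change -0.64, standard error 0.067, adjusted p = 1.39e-05). HK1, the constitutive hexokinase, was higher by 0.22 on the log2 scale (adjusted p = 0.0031), but did not pass after removal of the length and GC trends (0.07, adjusted p = 0.22). GPI, which turns glucose 6-phosphate into fructose 6-phosphate, rose by 0.76.

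The 3 phosphofructokinase genes differed in direction. PFKM, the muscle type, rose by 0.69 on the log2 scale (standard error 0.052, adjusted p = 1.01e-06). PFKP, the platelet type, was at 9359 and 9729.8 normalized counts in Parental cells against 5863 and 5519 in ZMYND8 OE cells, a fall of 0.75 (standard error 0.052, adjusted p = 5.02e-07). PFKL, the liver type, fell by 0.38, and did not pass with total counts alone (-0.12, adjusted p = 0.067). For aldolase, ALDOC (ENSG00000109107, chromosome 17, 28573115 to 28576948), the brain type, rose 2.23-fold from 357 and 389.9 to 767 and 903 normalized counts (log2 fold change 1.16, standard error 0.11, adjusted p = 4.77e-06). ALDOA did not pass (0.25, adjusted p = 0.11), but passed as higher with total counts alone (0.50, adjusted p = 0.0043), with upper quartile normalization (0.33, adjusted p = 0.045) and without ZMYND8 OE replicate 2 (0.38, adjusted p = 0.035). ALDOA is usually abundant, yet it held only 244 to 929 counts a library. Another gene on the same strand shares 42.96% of its exon bases, so the level of ALDOA here is uncertain.

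In lower glycolysis, 3 of 7 genes fell, 2 rose and 2 did not pass. ENO1, the common enolase, fell by 0.63 on the log2 scale (standard error 0.070, adjusted p = 2.16e-05), while ENO2 (ENSG00000111674, chromosome 12, 6913745 to 6923698), the neuronal enolase, was at 2911 and 3124 normalized counts in Parental cells against 6853 and 7595 in ZMYND8 OE cells. ENO2 was thus 2.39-fold higher (log2 fold change 1.26, standard error 0.063, adjusted p = 3.71e-08). PKM, which makes pyruvate, fell by 0.51, and PGAM1 fell by 0.37, though 65.97% of the 31-base words of PGAM1 recur elsewhere in the genome. PGAM1 did not pass with total counts alone (-0.12, adjusted p = 0.052). TPI1 was higher by 0.28 (adjusted p = 0.00060), but did not pass with the length and GC trends taken out (0.04, adjusted p = 0.55). GAPDH (-0.11, adjusted p = 0.084) and PGK1 (-0.03, adjusted p = 0.64) did not pass. With total counts alone both passed as higher, at 0.15 and 0.23, whereas GAPDH passed as lower with DESeq2 (-0.12, adjusted p = 0.029), with length and GC trends taken out (-0.39, adjusted p = 4.80e-05), with the replicate block (-0.11, adjusted p = 0.039) and without ZMYND8 OE replicate 1 (-0.14, adjusted p = 0.024). No direction can therefore be given for GAPDH.

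In the lactate and pyruvate branch, 3 of 4 genes fell. LDHA, the lactate dehydrogenase subunit that favours lactate, was at 37533 and 37767 normalized counts in Parental cells against 21769 and 18899 in ZMYND8 OE cells (log2 fold change -0.89, standard error 0.065, adjusted p = 7.76e-07). LDHB, the heart-type subunit, was higher by 0.26 (adjusted p = 0.0015). SLC16A3 (MCT4, ENSG00000141526, chromosome 17, 82228397 to 82261129), which exports lactate, was at 5143 and 5501 in Parental cells against 2056 and 1615 in ZMYND8 OE cells, 2.89-fold lower (log2 fold change -1.53, standard error 0.093, adjusted p = 1.70e-07). PDK1, a kinase that shuts off pyruvate dehydrogenase, was at 776 and 778 in Parental cells against 588 and 552 in ZMYND8 OE cells (log2 fold change -0.45, standard error 0.084, adjusted p = 0.00093). The fall of PDK1 did not pass with total counts alone (-0.19, adjusted p = 0.069).

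**Figure D2:**
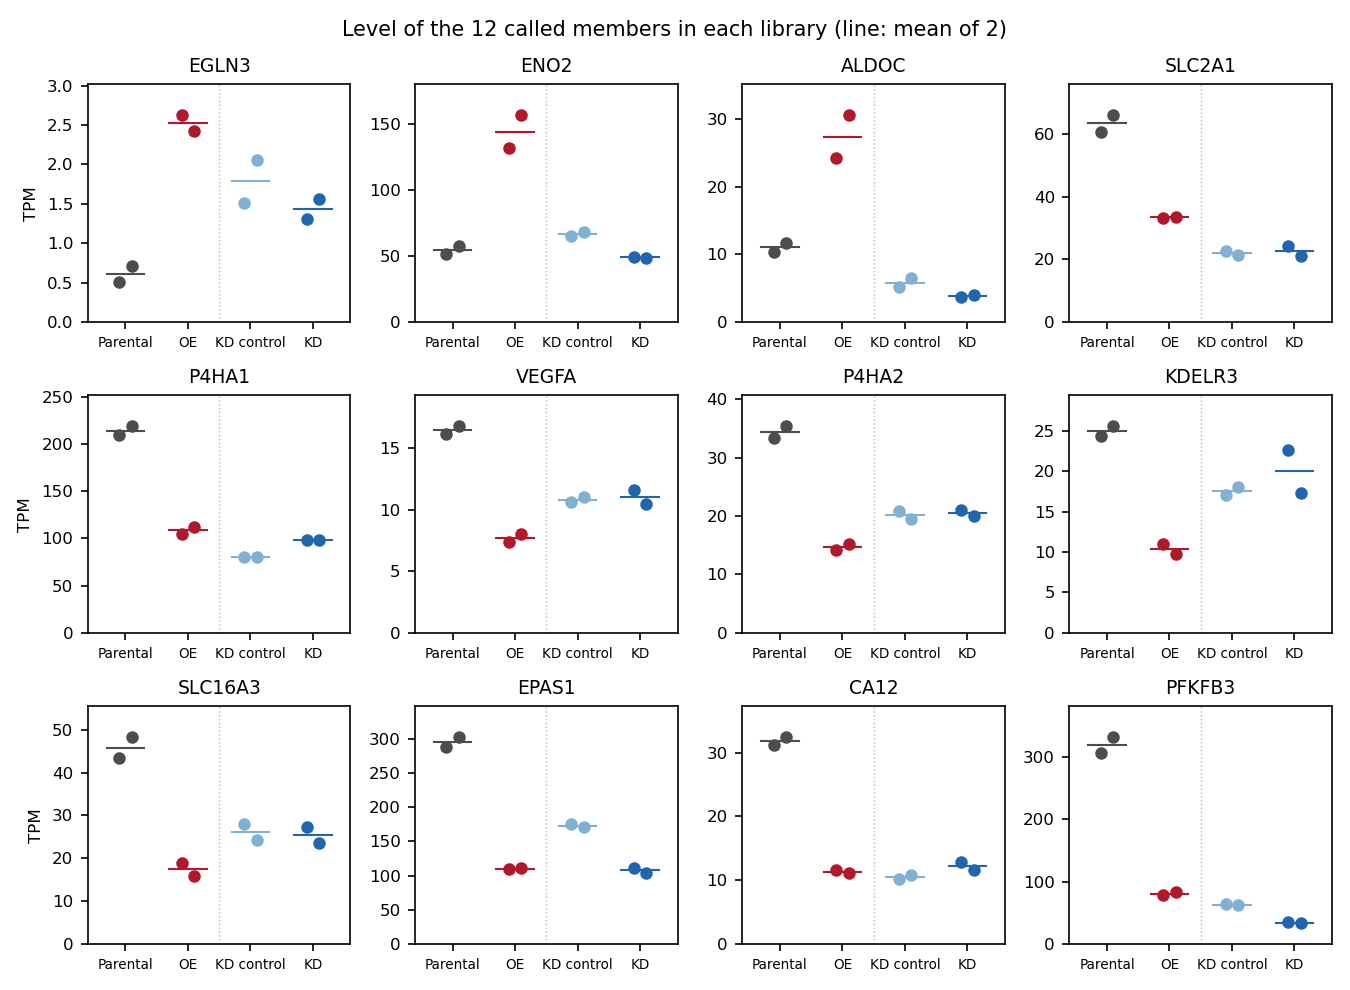
Level in TPM of the 12 called members in each of the 8 libraries, ordered from the highest to the lowest log2 fold change in ZMYND8 OE against Parental. Points are libraries, lines are means of 2 and the dotted line parts the experiments, between which levels differ for other reasons too. EGLN3, ENO2 and ALDOC are higher in both OE libraries than in both Parental libraries, and the other 9 are lower.

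The knockdown comparison gave smaller changes. Of the 39 members, 6 were higher in ZMYND8 KD than in KD control cells, 5 were lower and 28 did not pass the test. The share was 15.4% higher, beside 13.4% of the 19789 genes tested, and 12.8% lower, beside 10.8%, so that members passed about as often as other genes. No member was called in either direction, beside 1.36% of all genes called higher and 0.596% called lower. The median log2 fold change of the members was 0.05, and that of all genes was -0.01. Without ZMYND8 KD replicate 2, the number of members that were higher became 10.

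Higher in ZMYND8 KD cells were PDK1, PFKP, ALDOA, P4HA1, CA12 and BNIP3L. PDK1 was at 893 and 968 normalized counts in KD control cells against 1439 and 1378 in ZMYND8 KD cells (log2 fold change 0.60, standard error 0.075, adjusted p = 0.00027). PFKP was at 7173 and 6769 in KD control cells against 10469 and 9527 in ZMYND8 KD cells (log2 fold change 0.52, standard error 0.059, adjusted p = 0.00014). In both genes, each KD library exceeded each control library. P4HA1 was at 4152 and 3932 against 5259 and 5399 (log2 fold change 0.40, standard error 0.051, adjusted p = 0.00032), and CA12 at 1193 and 1203 against 1561 and 1436 (log2 fold change 0.32, standard error 0.070, adjusted p = 0.0073). ALDOA was higher by 0.48 (adjusted p = 0.039), and without ZMYND8 KD replicate 1 by 0.18 (adjusted p = 0.35). BNIP3L was higher by 0.25 (adjusted p = 0.010), with adjusted p = 0.056 when KD control replicate 1 was left out.

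Lower in ZMYND8 KD cells were PFKFB3, EPAS1, ALDOC, SLC2A3 and ENO2. PFKFB3 was at 6449 and 6018 normalized counts in KD control cells against 3676 and 3685 in ZMYND8 KD cells (log2 fold change -0.76, standard error 0.053, adjusted p = 5.76e-06). EPAS1 was at 21214 and 19622 in KD control cells against 13977 and 13522 in ZMYND8 KD cells (log2 fold change -0.57, standard error 0.056, adjusted p = 5.34e-05). These were the lowest log2 fold changes among the members that passed. ENO2 was at 4637 and 4596 against 3661 and 3719 (log2 fold change -0.32, standard error 0.048, adjusted p = 0.00084). ALDOC was at 227 and 265 against 167 and 186 (log2 fold change -0.48, standard error 0.15, adjusted p = 0.037), and it did not pass with DESeq2 (-0.48, adjusted p = 0.093), with no filter on low counts (-0.48, adjusted p = 0.105), without ZMYND8 KD replicate 1 (-0.41, adjusted p = 0.15) or without KD control replicate 2 (-0.36, adjusted p = 0.23). SLC2A3 fell by 0.37 on the log2 scale (adjusted p = 0.0092).

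Of the 12 members called on overexpression, 6 passed on knockdown and 6 did not. VEGFA was at 2545 and 2515 normalized counts in KD control cells against 2894 and 2691 in ZMYND8 KD cells (log2 fold change 0.14, standard error 0.057, adjusted p = 0.10). KDELR3 was at 544 and 543 against 750.4 and 588 (0.30, standard error 0.12, adjusted p = 0.094), and P4HA2 at 3475 and 3059.5 against 3626 and 3537 (0.13, adjusted p = 0.17). In these genes both KD libraries exceeded both control libraries, and whether they passed depended on the setting. P4HA2 passed without KD control replicate 1 (0.23, adjusted p = 0.030) and with the replicate block (0.13, adjusted p = 0.041), and VEGFA with the block (0.14, adjusted p = 0.028). For SLC2A1, at 2477 and 2227 against 2782 and 2469 (0.16, adjusted p = 0.15), SLC16A3, at 4196 and 3457 against 4250.0 and 3762 (0.07, adjusted p = 0.63), and EGLN3, at 185 and 239 against 167 and 204 (-0.19, adjusted p = 0.46), the groups overlapped. Without ZMYND8 KD replicate 2, KDELR3 (0.46, adjusted p = 0.0039) and SLC2A1 (0.24, adjusted p = 0.014) passed. HK2 was at 3988 and 4024 against 4380.3 and 4452 (0.14, adjusted p = 0.059), LDHA at 21819.8 and 21547 against 22448 and 22528 (0.05, adjusted p = 0.49), and HIF1A at 22417 and 23657 against 21693 and 22392 (-0.06, adjusted p = 0.43). CA9 had 9 to 23 counts a library in this experiment, and its estimate of -1.05 on the log2 scale (standard error 0.41, adjusted p = 0.092) did not pass. The remaining members had log2 fold changes from -0.42 (ANKRD37) to 0.21 (ADM).

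Set side by side, 9 members passed in both comparisons, 6 with opposite signs and 3 with the same sign. Opposite signs were found for CA12, P4HA1, PFKP and PDK1, which were lower on overexpression and higher on knockdown, and for ALDOC and ENO2, which were higher on overexpression and lower on knockdown. EPAS1, PFKFB3 and SLC2A3 were lower in both. Among all genes tested in both comparisons, 3527 passed in both and 61.7% of these had opposite signs. The comparisons share no library. The difference of the effects, fitted over all 8 libraries, passed for 30 of the 39 members, beside 49% of all 22619 genes tested. It was largest in size for EGLN3 (2.08 on the log2 scale, standard error 0.27, adjusted p = 1.47e-05) and CA12 (-1.95, standard error 0.095, adjusted p = 2.92e-10). It passed for all 6 genes with opposite signs and also for EPAS1 (-0.997), PFKFB3 (-1.37) and SLC2A3 (-0.30), which fell further on overexpression than on knockdown.

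**Figure D3:**
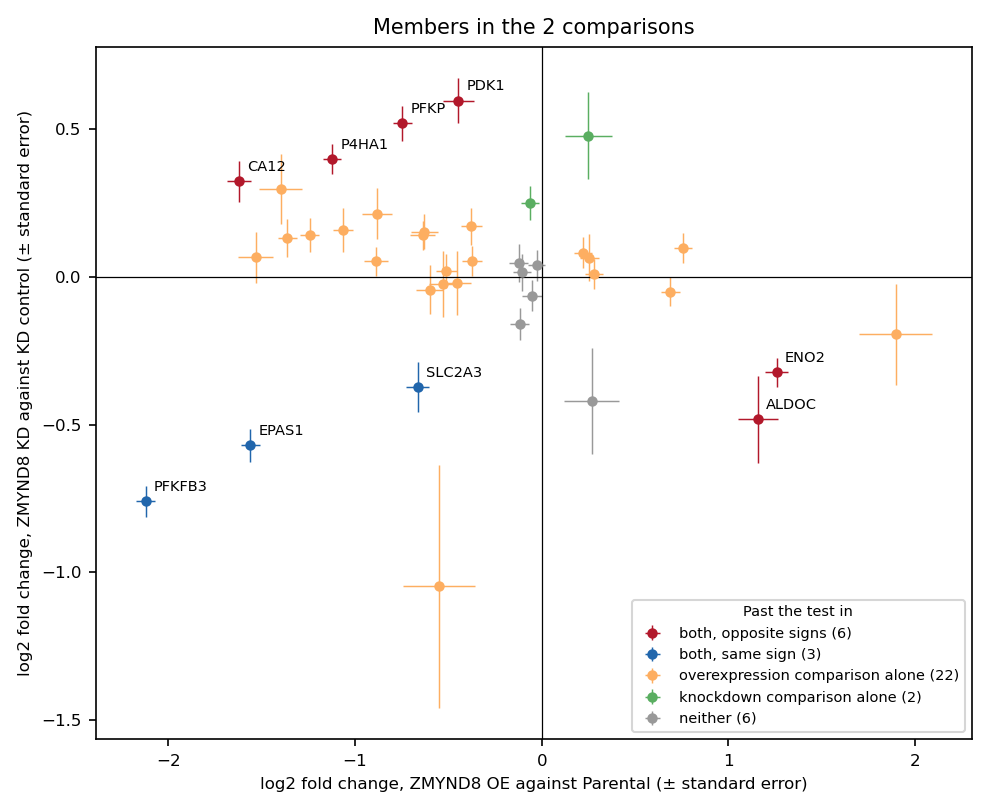
Log2 fold change of the 39 members in ZMYND8 OE against Parental (horizontal axis) and in ZMYND8 KD against KD control (vertical axis). Points are estimates from 2 against 2 libraries and bars are standard errors, with colours for the comparisons in which a member passed the test. The 6 red members lie at the upper left (4) and lower right (2), the 3 blue ones at the lower left, and most others spread along the horizontal axis.

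The isozyme makeup of glycolytic steps was described as shares of the summed TPM, without a test. ENO2 made up 4.88% and 5.09% of enolase TPM in Parental cells and 14.6% and 18.2% in ZMYND8 OE cells. It made up 10.3% and 10.8% in KD control cells and 7.5% and 8.17% in ZMYND8 KD cells. The neuronal enolase share was thus higher with more ZMYND8 and lower with less, within each experiment. PFKM made up 29.4% and 29.2% of phosphofructokinase TPM in Parental cells and 49.0% and 52.0% in ZMYND8 OE cells, while PFKP went from 46.6% and 46.1% to 30.4% and 28.6%. In the knockdown experiment the PFKM share was 37.8% and 38.5% in the controls and 29.8% and 31.8% in the KD libraries, and the PFKP share was 43.2% and 42.9% against 52.2% and 50.8%. The phosphofructokinase mix therefore also moved in opposite directions in the 2 experiments. On knockdown PFKM itself did not pass the test (log2 fold change -0.05, adjusted p = 0.51), while PFKP was higher by 0.52.

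LDHB made up 10.2% and 10.5% of the LDHA and LDHB total in Parental cells and 19.4% and 21.4% in ZMYND8 OE cells. The share was 20.8% and 20.4% in KD control cells and 19.2% and 22.3% in ZMYND8 KD cells, which overlapped. HK1 made up 79.6% and 78.8% of hexokinase TPM in Parental cells and 86.8% and 87.8% in ZMYND8 OE cells, and 73.9% to 75.6% over the 4 libraries of the knockdown experiment. SLC2A3 made up 27.6% of the transporter pair in each Parental library, against 32.1% and 34.9% in ZMYND8 OE cells. It made up 26.0% and 27.7% in KD control cells and 19.5% and 21.0% in ZMYND8 KD cells. The aldolase mix is uncertain because of the shared exons of ALDOA. ALDOC made up 65.6% and 66.8% in Parental cells, 75.7% and 81.5% in ZMYND8 OE cells, 36.1% and 41.1% in KD control cells and 20.6% and 29.5% in ZMYND8 KD cells.

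**Figure D4:**
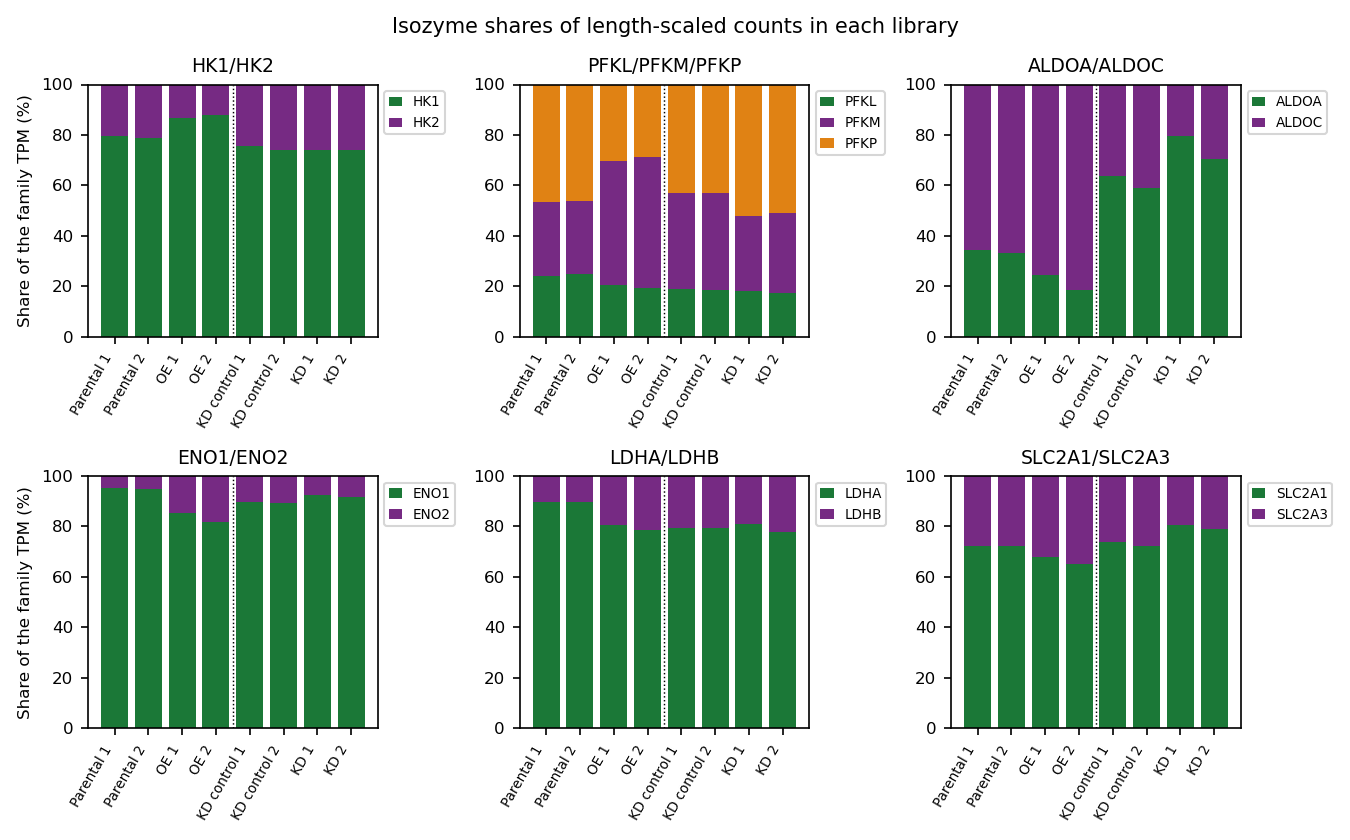
Share of each isozyme in the summed TPM of its family, in percent, in each of the 8 libraries, with the dotted line between the experiments. The ENO2 segment grows from 4.88 and 5.09 to 14.6 and 18.2 percent from Parental to ZMYND8 OE and shrinks from control to KD, and PFKM and PFKP trade places from Parental to ZMYND8 OE only.

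The same 4 members had the highest levels per length in each group. GAPDH led with a mean of 3199 ± 81.9 TPM (SD, n = 2) in Parental cells, followed by PKM, ENO1 and TPI1. The order was the same in both groups of the knockdown experiment, whereas in ZMYND8 OE cells TPI1 (803 TPM) stood above ENO1 (740.3 TPM). GAPDH was at a mean of 3279 TPM in ZMYND8 OE, 2401 TPM in KD control and 2248 TPM in ZMYND8 KD cells, but 17.61% of its exon bases lie under a gene on the other strand that held 1847 to 2309 counts in the overexpression experiment and 85 to 146 in the knockdown experiment. The strand setting of the counting was not given in the sources used here, so the part of such overlaps in the levels was not tested. Genes on the other strand also cover 40.35% of the exon bases of ANKRD37, 11.33% of ALDOC, 7.95% of BNIP3L, 5.51% of PFKM, 5.5% of P4HA2 and 5.36% of SLC16A3. The gene over SLC16A3, CSNK1D, held 10360 to 14074 counts a library, beside 1479 to 5926 for SLC16A3. Another gene on the same strand, with at most 4 counts in any library, shares 33.42% of LDHB. The gene over BNIP3L, PNMA2, held 127 and 202 counts in Parental cells against 4276 and 4037 in ZMYND8 OE cells. Of the exonic 31-base words, 29.02% recur elsewhere on the primary chromosomes for HK2, 26.91% for TPI1 and 26.84% for GAPDH. The share was 21.88% for BNIP3, 17.34% for PGK1, 16.74% for LDHA, 13.52% for EGLN1 and 11.84% for GPI. A further 37.42% of the words of GPI recur on alternate contigs. Reads of these genes may have been left out or shared. PFKFB3 was at 306 and 331 TPM in Parental, 78.7 and 82.97 in ZMYND8 OE, 63.4 and 62.3 in KD control and 34.7 and 33.9 in ZMYND8 KD cells. Parental cells thus stood apart from the other 3 groups for PFKFB3. The same was seen for CA12, at 31.2 and 32.4 TPM in Parental cells and 10.2 to 12.9 TPM in the other 6 libraries, and for SLC2A1, at 60.8 and 66.0 TPM in Parental cells and 21.0 to 33.7 TPM elsewhere. The KD control and Parental groups differ by experiment, by Dox and by the control knockdown itself, which cannot be told apart.

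Other genes of the same pathways were taken from lists of 60 genes, of which 55 were tested in each comparison. In ZMYND8 OE cells 22 of these 55 were higher and 20 were lower, beside 31.7% and 29.1% of all genes tested. Of the 55, 9 were called higher and 8 were called lower, beside 11.8% and 6.84% of all genes. Both directions were thus more frequent among the listed genes than among all genes, a comparison that was not tested. The median log2 fold change of the listed genes was 0.09. The highest of the listed genes called with a mean above 100 were CXCR4, a chemokine receptor (6.51), SLC16A7, the lactate and pyruvate carrier MCT2 (5.17), and STC2, a secreted glycoprotein (2.80). CXCR4 had 5 and 3 counts in Parental cells against 443 and 335 in ZMYND8 OE cells, and SLC16A7 had 6 and 9 against 370 and 206. Both cleared the filter on the mean through the OE libraries alone, so the size of these 2 fold changes is uncertain. Those called lower included LOXL2, a lysyl oxidase that crosslinks collagen (-2.25), and TFRC, the transferrin receptor (-1.65). Lysyl oxidases and P4HA1 and P4HA2 all act on collagen, and LOX also fell, 2.83-fold. The collagen lysyl hydroxylase genes on the lists did not move together. PLOD1 was lower (-0.71), while PLOD2 was called higher (1.47, adjusted p = 0.00011). In ZMYND8 KD cells 19 of the other genes (34.5%) were higher and 6 (10.9%) lower, beside 13.4% and 10.8% of all genes tested. Called higher were 3, STC2 (1.39), STC1 (1.26) and LOX (1.21), beside 1.36% of all genes. Called lower was 1, the HIF subunit HIF3A (-1.07), named after its value was seen, beside 0.596% of all genes. HIF3A was 1.54 higher on overexpression.

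Markers of the 2 cell states that SK-N-SH cells hold moved with the overexpression comparison. Of 10 adrenergic neuroblast markers, 9 were tested and all 9 were higher in ZMYND8 OE cells, with a summed level of 483 to 503 TPM in Parental and 1877 to 2137 TPM in ZMYND8 OE libraries, while TH had at most 5 counts in any library. Of 11 mesenchymal markers, 8 were lower and 2, PRRX2 and TWIST1, were higher, with a summed level of 4513 to 4910 TPM in Parental and 2367 to 2387 TPM in ZMYND8 OE libraries. Of 8 proliferation markers, 5 were lower and 1 was higher, none of them called, and their summed level was 1224 to 1266 TPM in Parental and 1267 to 1293 TPM in ZMYND8 OE libraries. In the knockdown comparison 4 of 8 tested adrenergic markers were lower and none higher, and 3 of 8 proliferation markers were lower. Of 11 mesenchymal markers, 5 were higher and 2 lower. The mesenchymal marker PRRX1 was at 6841 and 6876 normalized counts in KD control cells against 3536 and 3419 in ZMYND8 KD cells. SNAI2, another of them, was at 584 and 555 against 432 and 427. The summed adrenergic level was 1257 to 1432 TPM in KD control and 987 to 1117 TPM in ZMYND8 KD libraries, and the mesenchymal one 2012 to 2071 and 2294 to 2461 TPM. The part of these markers in the results for the members was not tested. In bulk RNA, a change in the share of cells of one state and a change in the level per cell cannot be told apart.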

How the data were processed

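Total RNA of SK-N-SH cells was sequenced in 4 groups of 2 libraries. The authors trimmed reads with Trim_Galore, aligned them to GRCh38 with Hisat2 and counted them with featureCounts, and deposited raw counts per gene with the summed exon length of each gene. The methods name GENCODE release 28. Of 60662 lines, 3 lines of a split gene were left out. Symbols came from GENCODE release 44, which matched 60418 of 60659 genes. After filterByExpr and TMM normalization, edgeR's quasi-likelihood test was run two-sided (R 4.3.3 with edgeR 4.0.16 and limma 3.58.1) with Benjamini-Hochberg adjustment over all genes tested, each comparison on its own 4 libraries and the difference of effects on all 8. Calls needed an adjusted p below 0.05, a log2 fold change of 1 or more in size, and more than 20 normalized counts on average. Normalized counts are scaled within a comparison, and TPM was computed from counts and exon length. The fits were tested on simulated data. Alternatives were other normalizations, DESeq2 1.42.0, no filter, other thresholds, removal of length and GC trends, all 8 libraries in 1 fit, a replicate block, abundant genes left out, and each library left out in turn. Values per library were given for members called in either comparison, for those with opposite signs and for 6 fixed genes. Members and lists were chosen with earlier results of these data known. Replicates differed by more than counting noise (chi-square per degree of freedom 6.05 to 8.86). The methods describe 2 replicates for each condition, and p-values measure only the spread between these samples. The values of 1 gene of the pathway lists are not reported here.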

Additional observations from a re-analysis of the deposited data

How the results depend on the processing

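With total counts alone in the overexpression comparison, 15 members were higher, their median log2 fold change was -0.20 and that of all genes 0.29, and 10090 genes were higher and 3583 lower in place of 6604 and 6059. Upper quartile normalization gave medians of -0.38 for members and 0.11 for all genes, and taking out length and GC trends gave -0.65 for members, with the replicate block or without it. At a fold change of at least 1.5, 5 members were called higher and 16 lower on overexpression, and 1 higher and 1 lower on knockdown. The share of all genes at this threshold was not computed, so these counts give no comparison of members with other genes. In the knockdown comparison total counts alone gave medians of -0.0047 for members and -0.0658 for all genes. All 8 libraries in 1 fit called 1 member lower on knockdown (CA9). CA9 averaged 15.7 normalized counts in the knockdown comparison and 51.9 over all 8 libraries. CA9 therefore cleared the count threshold of a call only because the overexpression libraries were averaged in. Also on knockdown, no filter left 1197 of 2146 genes lower, and DESeq2 called 74 of 118 genes lower. The replicate numbers are not said to mark a shared culture or day, and the deviations of same-numbered libraries correlated at 0.0576 and 0.1091. The replicate block gave 12 members higher on knockdown in place of 6, also with length and GC trends taken out, where ENO1, HK2, PFKL and SLC2A1 were added in both fits. Leaving out 1 library at a time gave -0.5247 to -0.4153 for the overexpression median of members, 5 to 10 members higher on knockdown (10 without ZMYND8 KD replicate 2), and 110 to 181 genes called lower on knockdown (181 without ZMYND8 KD replicate 1). A lone library left in a group is assumed to vary like the others. Every one of the 12 members called on overexpression passed the test, in the same direction, under each alternative run. The causes of these shifts were not tested. The difference of effects passed for 28 to 31 members over the alternatives run. CA9 and EGLN3 rest on few counts.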
